A study of Mus musculus with 10 samples.

Results

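Insulin and the insulin-like growth factors (IGFs) act through related receptor tyrosine kinases at the cell surface, which pass the signal to insulin receptor substrates, phosphoinositide 3-kinase and Akt. Secreted IGF binding proteins hold the ligands outside the cell and set how much of them reaches a receptor, and a separate receptor without kinase activity carries IGF2 to the lysosome. Tumor cells, lung tumor lines among them, are widely studied for their dependence on this signal. The 10 genes described here are the ligand Igf1, the 3 receptors Igf1r, Insr and Igf2r, and the 6 binding protein genes Igfbp2, Igfbp3, Igfbp4, Igfbp5, Igfbp6 and Igfbp7. They were taken by symbol as 10 of the 26335 gene rows.

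The values come from bulk RNA of mSCLC-2405, 1 mouse line grown from a primary small cell lung cancer in the lungs of mice with conditional tumor suppressor deletions, Rb1 among them, after Adeno-Cre was given into the trachea. Both groups share this line, its deletions and RPMI medium with serum. The 5 control libraries came from cells kept with the vehicle DMSO and the 5 stiripentol libraries from cells kept with 250 μM stiripentol, an antiseizure drug, for 48 h in each case. Nothing in the labels says that the libraries of a group came from separate cultures, so the p-values measure only the spread between these libraries. Levels are log2 CPM as deposited, the reads of a gene scaled to the size of its library with a small prior added, and they are not per gene length, so levels of different genes are not ranked.

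The libraries stood apart within each group. Across the 12306 genes whose mean level exceeded 0 log2 CPM, controls 4 and 5 and controls 1 to 3 formed separate clusters, and so did stiripentol 1 and 2 and stiripentol 3 to 5. Pearson r across genes was 0.983 to 0.997 within a cluster and 0.92 to 0.939 between clusters of a group. Stiripentol 3 to 5 correlated as closely with the controls (0.92 to 0.938) as with stiripentol 1 and 2 (0.922 to 0.938). The study's own library numbers join controls 4 and 5 to stiripentol 1 and 2 (the 2-library set) and controls 1 to 3 to stiripentol 3 to 5 (the 3-library set). The labels do not give this pairing, so values are given for all libraries, within each set and, where they matter, for all 4 pairings of a control cluster with a stiripentol cluster.

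The labelled cell type was checked against markers. Of 10 neuroendocrine markers only Ncam1 and Uchl1 passed the filter, and Syp, Insm1, Chgb and Dll3 had at most 20, 10, 5 and 3 reads in a library, so these neuroendocrine genes were near absent. The keratin genes Krt8 and Krt18 were high, with summed epithelial marker levels of 2380 to 2959 CPM in control and 1809 to 2319 CPM in stiripentol libraries. Epcam and Cdh1, the epithelial markers on the list that are not keratins, lay below the filter with at most 1 and 63 reads in a library. Krt19 changed by -1.11 in the 2-library set and 1.24 in the 3-library set. Of 8 fibroblast markers 6 passed the filter, and the summed level of the list was 404 to 696 CPM in control and 152 to 185 CPM in stiripentol libraries, without overlap, while Lum and Thy1 had at most 3 and 1 reads. Summed endothelial markers stayed at or below 1.2 CPM. Immune markers summed to 6.5 to 19 CPM in control and 59 to 103 CPM in stiripentol libraries, most of it from Cd68, while Ptprc, the pan-leukocyte marker, had at most 3 reads. The part of the fibroblast and immune markers in the results below was not tested.

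The promoter sequences of the 4 genes that changed are shown first, as the regulatory sequence next to a RefSeq start of each. Each is the 250 bases before the RefSeq transcription start on GRCm38.p6, read 5′ to 3′ on the strand of the gene. Capitals mark matches, on either strand, to GGGCGG (the GC box), CACGTG (the E-box), TATAAA (the TATA box) or CCAAT. The windows are Igf1r at chr7:67952007-67952256 on the plus strand, Igf2r at chr17:12769707-12769956 on the minus strand, Igfbp4 at chr11:99040994-99041243 on the plus strand and Igfbp7 at chr5:77408046-77408295 on the minus strand. The Igfbp4 window lies inside the GENCODE gene span given below, downstream of the start of that span.
Igf1r: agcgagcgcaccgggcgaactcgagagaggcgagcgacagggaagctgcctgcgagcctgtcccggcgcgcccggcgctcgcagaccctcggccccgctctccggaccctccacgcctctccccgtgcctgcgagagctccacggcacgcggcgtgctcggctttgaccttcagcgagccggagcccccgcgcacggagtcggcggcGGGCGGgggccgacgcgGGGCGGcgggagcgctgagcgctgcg
Igf2r: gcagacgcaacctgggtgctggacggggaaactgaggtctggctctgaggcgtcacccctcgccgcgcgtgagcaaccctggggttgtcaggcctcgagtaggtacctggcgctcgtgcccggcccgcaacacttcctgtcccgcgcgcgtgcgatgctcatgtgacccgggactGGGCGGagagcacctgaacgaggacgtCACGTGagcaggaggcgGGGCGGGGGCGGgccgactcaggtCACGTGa
Igfbp4: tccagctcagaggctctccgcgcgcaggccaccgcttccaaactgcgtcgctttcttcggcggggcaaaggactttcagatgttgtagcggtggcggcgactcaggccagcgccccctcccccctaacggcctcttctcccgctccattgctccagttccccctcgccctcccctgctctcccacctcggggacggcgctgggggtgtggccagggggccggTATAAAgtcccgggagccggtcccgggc
Igfbp7: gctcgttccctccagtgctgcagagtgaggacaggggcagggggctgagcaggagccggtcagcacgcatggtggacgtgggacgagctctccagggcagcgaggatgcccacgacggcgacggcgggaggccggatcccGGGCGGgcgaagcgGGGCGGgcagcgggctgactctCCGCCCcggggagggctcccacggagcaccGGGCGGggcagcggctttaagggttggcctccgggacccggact
All of these windows were rich in CG pairs, with 42 in Igf1r, 27 in Igf2r, 22 in Igfbp4 and 26 in Igfbp7 against a median of 6 over 32851 mouse promoters of the same length. Their GC content was 77.6%, 69.2%, 69.2% and 74%, against a median of 52.4%. GGGCGG matched 2 times in Igf1r, 3 times in Igf2r and 4 times in Igfbp7, and 32.7% of all promoters held a match. CACGTG matched 2 times in Igf2r (6.02% of all promoters) and TATAAA 1 time in Igfbp4 (12.4% of all promoters). CCAAT, held by 33.8% of all promoters, matched in none of the 4 windows. Thus Igf1r and Igfbp7, which fell, and Igf2r, which rose, all carried GC boxes, and Igfbp4, which also fell, carried a TATA box alone. None of the motifs contains another, and a match describes the window only. RefSeq promoters were matched for 9 of the 10 genes, Insr being the exception. CG pairs in the windows not printed numbered 32 in Igfbp3, 14 and 11 in 2 windows of Igfbp2, 10 in Igfbp5, 7 in Igfbp6 and 5 in Igf1. Igfbp3, with a GC content of 73.2%, thus lay within the range of the 4 genes that changed. Among these other windows GGGCGG and CACGTG matched only in 1 window of Igfbp2, 3 times and 1 time. TATAAA matched 1 time in Igfbp6, which was not called, and CCAAT matched 2 times in Igfbp6 and 1 time in Igf1.

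Stiripentol libraries held less RNA of the IGF1 receptor gene Igf1r and of the binding protein genes Igfbp4 and Igfbp7, and more of the IGF2 receptor gene Igf2r. Of the 10 genes, 7 passed the filter and were tested with limma. 3 were called lower and 1 higher at an adjusted p under 0.05, against a background of 14.1% of all tested genes called lower and 13.6% called higher. The other 3 tested genes, Insr, Igfbp3 and Igfbp6, were not called. The remaining 3, Igf1, Igfbp2 and Igfbp5, lay at or below the filter. The median log2 change of the 7 tested genes was -0.86, beside -0.056 for all tested genes. In bulk RNA, fewer cells that express a gene and less of its RNA in each cell cannot be told apart.

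**Figure D1:**
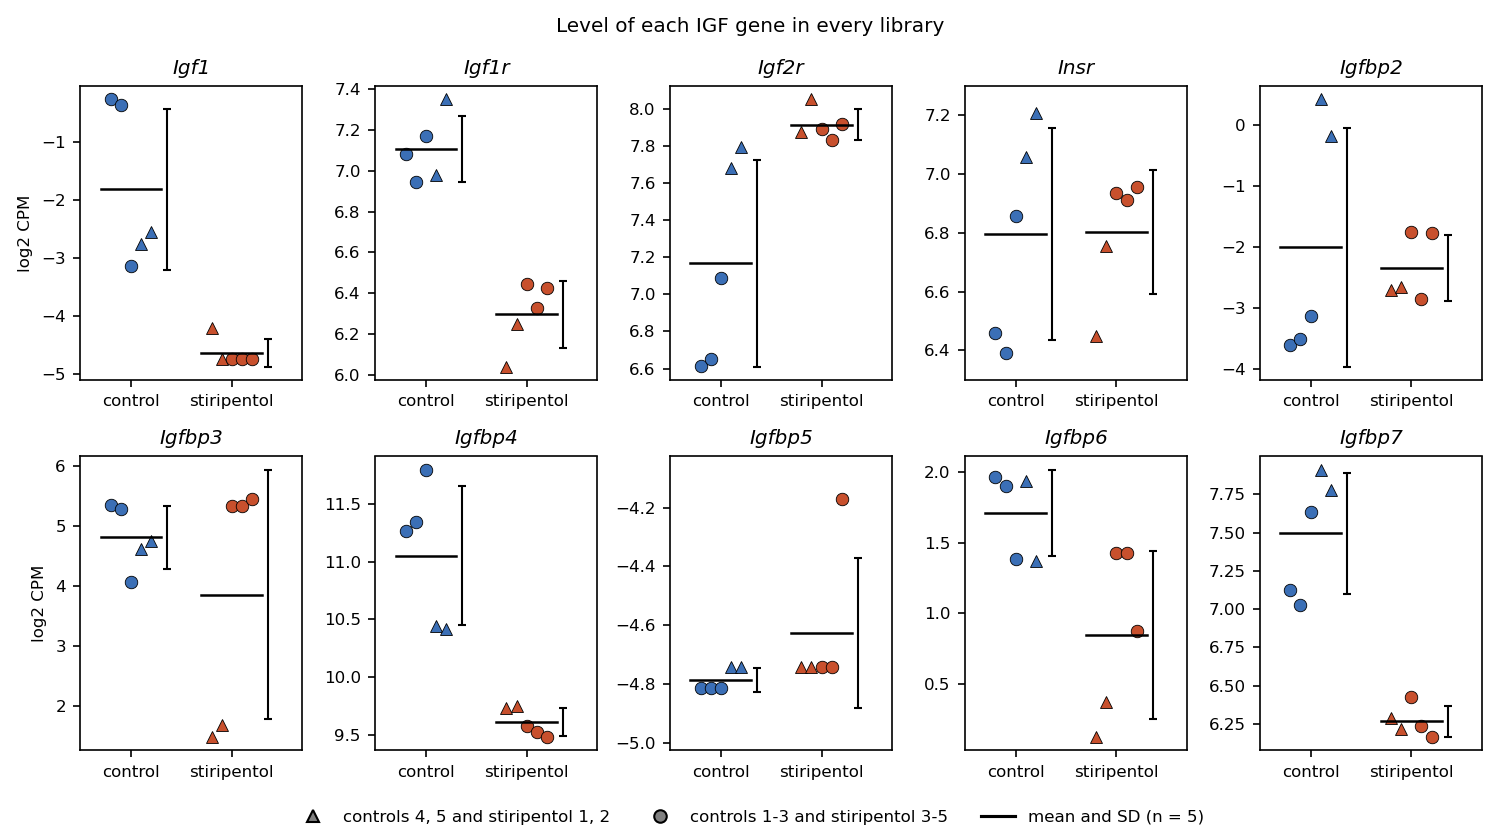
Level of each of the 10 genes (log2 CPM, vertical axis, with its own range in every panel) in the 5 control and 5 stiripentol libraries. Triangles are controls 4 and 5 and stiripentol 1 and 2, circles the other libraries, and lines and bars are the mean and SD (n = 5). Igf1r, Igfbp4 and Igfbp7 show all stiripentol libraries below all controls, Igf2r shows them above, and Igfbp3 is low in stiripentol 1 and 2 alone.

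Igf1, on chromosome 10 (87858265 to 87937047, plus strand), encodes the ligand of the IGF1 receptor and was barely detected. Controls 1 to 5 held 52, 43, 5, 7 and 3 reads of it. Stiripentol 1 held 1 read and stiripentol 2 to 5 held 0, which allows up to 3 reads in each. So every control library held more Igf1 reads than any stiripentol library, and most of the reads lay in controls 1 and 2. The mean log2 CPM was -1.81 ± 1.38 in control and -4.64 ± 0.24 in stiripentol libraries (SD, n = 5), with an exact two-sided permutation p of 0.00794, the smallest that 5 against 5 libraries can give. Pooled over libraries, 110 reads stood against 1, a CPM ratio of 117 with a 95% counting interval of 20.6 to 4679, which covers counting error only. The antisense gene Igf1os had at most 1 read in any library.

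Igf1r, on chromosome 7 (67952257 to 68233668, plus strand), encodes the receptor kinase that binds IGF1 and IGF2. Its levels in controls 1 to 5 were 7.08, 6.95, 7.17, 6.98 and 7.35 log2 CPM, and in stiripentol 1 to 5 they were 6.04, 6.25, 6.44, 6.33 and 6.42. The groups did not overlap, and stiripentol 1 was the lowest library. The mean was 7.11 ± 0.16 in control and 6.30 ± 0.16 in stiripentol libraries (SD, n = 5). Igf1r fell by 0.81 on the log2 scale (SE 0.12), 1.75-fold, with a limma adjusted p of 0.000996. Within the 2-library set it fell by 1.02 (adjusted p = 4.73e-05 by limma), where 46.5% of all tested genes were called lower. Within the 3-library set it fell by 0.67 (adjusted p = 0.000184 by limma), where 27% were called lower. Igf1r was also the 1 tested gene among the 7 whose change did not pass the limma test of a difference between the sets (0.35, adjusted p = 0.0816). With either control cluster set against either stiripentol cluster, its log2 difference lay between -1.02 and -0.67.

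Insr, on chromosome 8 (3150922 to 3279649, minus strand), encodes the insulin receptor, a close relative of Igf1r. Insr stood at levels of 6.46, 6.39, 6.86, 7.06 and 7.21 log2 CPM in controls 1 to 5, and at 6.45, 6.76, 6.94, 6.91 and 6.96 in stiripentol 1 to 5. The groups overlapped throughout, and their means of 6.79 ± 0.36 and 6.80 ± 0.21 (SD, n = 5) differed by 0.0080 (95% interval -0.38 to 0.40, limma adjusted p = 0.976). The sets moved in opposite directions. In the 2-library set Insr fell by 0.53 (adjusted p = 0.00249 by limma), and in the 3-library set it rose by 0.37 (adjusted p = 0.0260 by limma). That difference between sets was 0.90 (adjusted p = 0.00175 by limma). The receptors Igf1r and Insr thus differed in whether the sets moved together. Of all tested genes, 37% had set changes of opposite sign.

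Igf2r, on chromosome 17 (12682406 to 12769706, minus strand), encodes the receptor that takes IGF2 and mannose 6-phosphate tagged enzymes to the lysosome. Controls 1 to 5 had levels of 6.62, 6.65, 7.09, 7.68 and 7.79 log2 CPM, and stiripentol 1 to 5 had 7.88, 8.05, 7.89, 7.83 and 7.92. The stiripentol libraries lay close together and above every control, and controls 4 and 5 lay close beneath them. The mean was 7.17 ± 0.56 in control and 7.91 ± 0.08 in stiripentol libraries (SD, n = 5). Igf2r rose by 0.75 on the log2 scale (SE 0.23), 1.68-fold, with a limma adjusted p of 0.0333. The call was lost when any library other than control 4 or control 5 was left out, with adjusted p values of 0.0514 to 0.0759 by limma and changes of 0.61 to 0.77. In the 3-library set it rose by 1.09 (adjusted p = 0.000207 by limma), where 37.7% of all tested genes were called higher. In the 2-library set the difference was 0.23 (adjusted p = 0.0729 by limma), where 25.7% were called higher. The sets differed by 0.87 (adjusted p = 0.00155 by limma). The noncoding gene Airn is transcribed across Igf2r from the opposite strand and is known to silence the paternal copy. Airn held 166 to 609 reads in control and 198 to 263 in stiripentol libraries and fell by 0.83 (SE 0.20, adjusted p = 0.0121 by limma). Whether reads were counted by strand is not given in the sources used here, and without strand the RNAs of these overlapping genes cannot be told apart.

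Igfbp4, on chromosome 11 (99040005 to 99052655, plus strand), encodes a secreted binding protein that is cleaved by the protease PAPP-A to release IGF. Its levels in controls 1 to 5 were 11.26, 11.34, 11.80, 10.45 and 10.42 log2 CPM, and in stiripentol 1 to 5 they were 9.73, 9.75, 9.57, 9.52 and 9.48. All stiripentol libraries lay below all controls, and controls 4 and 5 lay below controls 1 to 3. The mean was 11.05 ± 0.60 in control and 9.61 ± 0.12 in stiripentol libraries (SD, n = 5). Igfbp4 fell by 1.44 on the log2 scale (SE 0.25), 2.72-fold, with a limma adjusted p of 0.00259, and its pooled reads were 657052 in control and 228470 in stiripentol libraries. In the 3-library set it fell by 1.94 (adjusted p = 2.61e-05 by limma) and in the 2-library set by 0.69 (adjusted p = 3.8e-05 by limma). The difference between the sets was -1.25 (adjusted p = 0.000156 by limma). Controls 4 and 5 minus controls 1 to 3 gave -1.03 on the log2 scale, and stiripentol 1 and 2 minus stiripentol 3 to 5 gave 0.22.

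Igfbp7, on chromosome 5 (77349240 to 77408045, minus strand), encodes a secreted protein that binds insulin and, with low affinity, IGFs. Its levels in controls 1 to 5 were 7.13, 7.03, 7.63, 7.91 and 7.78 log2 CPM, and in stiripentol 1 to 5 they were 6.29, 6.22, 6.42, 6.24 and 6.16. The groups did not overlap, and stiripentol 1 and 2 minus stiripentol 3 to 5 gave -0.022. The SD was 0.39 in control and 0.099 in stiripentol libraries (n = 5). Igfbp7 fell by 1.23 on the log2 scale (SE 0.17), 2.34-fold, with a limma adjusted p of 0.000936. It fell by 1.59 in the 2-library set (adjusted p = 2.64e-07 by limma) and by 0.99 in the 3-library set (adjusted p = 0.00103 by limma), a difference of 0.60 (adjusted p = 0.0306 by limma). The RNA polymerase II subunit gene Polr2b overlaps Igfbp7 from the other strand. It held 2600 to 12023 reads in control and 6281 to 7853 in stiripentol libraries, with a log2 change of -0.27 (SE 0.15, adjusted p = 0.192 by limma). Among the 4 binding protein genes tested, Igfbp4 and Igfbp7 were the 2 called lower.

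Igfbp3, on chromosome 11 (7206086 to 7215498, minus strand), encodes the main IGF carrier of the blood. In controls 1 to 5 its level was 5.35, 5.27, 4.06, 4.62 and 4.74 log2 CPM, and in stiripentol 1 to 5 it was 1.48, 1.68, 5.33, 5.33 and 5.43. Stiripentol 1 and 2 held 167 and 184 reads and lay far below all other libraries, whereas stiripentol 3 to 5 held 2326 to 2411 reads and lay at the level of the highest controls. Over all libraries the difference was -0.95 (SE 0.83, 95% interval -2.79 to 0.88, limma adjusted p = 0.403). Igfbp3 fell by 3.10 in the 2-library set (adjusted p = 6.54e-08 by limma), whereas in the 3-library set the difference was 0.47 (adjusted p = 0.211 by limma). The sets differed by 3.57 (adjusted p = 2.9e-05 by limma), the widest such gap among the 7 tested genes. Controls 4 and 5 minus controls 1 to 3 gave -0.21 and stiripentol 1 and 2 minus stiripentol 3 to 5 gave -3.79, so the gap lay between the stiripentol clusters.

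Igfbp6, on chromosome 15 (102144186 to 102149512, plus strand), encodes a binding protein that prefers IGF2. Levels of 1.96, 1.90, 1.38, 1.94 and 1.37 log2 CPM were found in controls 1 to 5 and of 0.13, 0.37, 1.42, 1.43 and 0.88 in stiripentol 1 to 5. Stiripentol 1, 2 and 5 lay below every control and stiripentol 3 and 4 within their range. The log2 difference was -0.86 (SE 0.31, 95% interval -1.54 to -0.18), and the limma adjusted p of 0.0585 missed the threshold. Without stiripentol 3 or stiripentol 4 it passed (adjusted p = 0.0446 and 0.0447 by limma). It also passed with a term for the library set (adjusted p = 0.0161 by limma) and with the study's other numbering as a block (adjusted p = 0.0496 by limma). It fell by 1.40 in the 2-library set (adjusted p = 0.000651 by limma), and in the 3-library set the difference was -0.50 (adjusted p = 0.0790 by limma). The difference between the sets was 0.90 (adjusted p = 0.0492 by limma). Reads were few, 928 in all controls together and 548 in all stiripentol libraries.

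Igfbp2 and Igfbp5 lie side by side on chromosome 1 (72824480 to 72852474, plus strand, and 72858065 to 72874865, minus strand), 5590 bases apart. Both encode secreted binding proteins, of which Igfbp2 is common in fetal tissue and tumors and Igfbp5 in muscle and bone. Igfbp2 held 3, 3, 5, 83 and 19 reads in controls 1 to 5 and 7, 7, 15, 6 and 14 in stiripentol 1 to 5. The groups overlapped, with a mean log2 difference of -0.35 and an exact two-sided permutation p of 0.675. Its reads stood out in controls 4 and 5, which were 3.55 log2 units above controls 1 to 3, and 15.8% of all tested genes differed by over 1 between these clusters in either direction. Igfbp5 held 0 reads in 9 of the 10 libraries and 1 read in stiripentol 5, so no difference was detectable at this depth and no test is given.

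**Figure D2:**
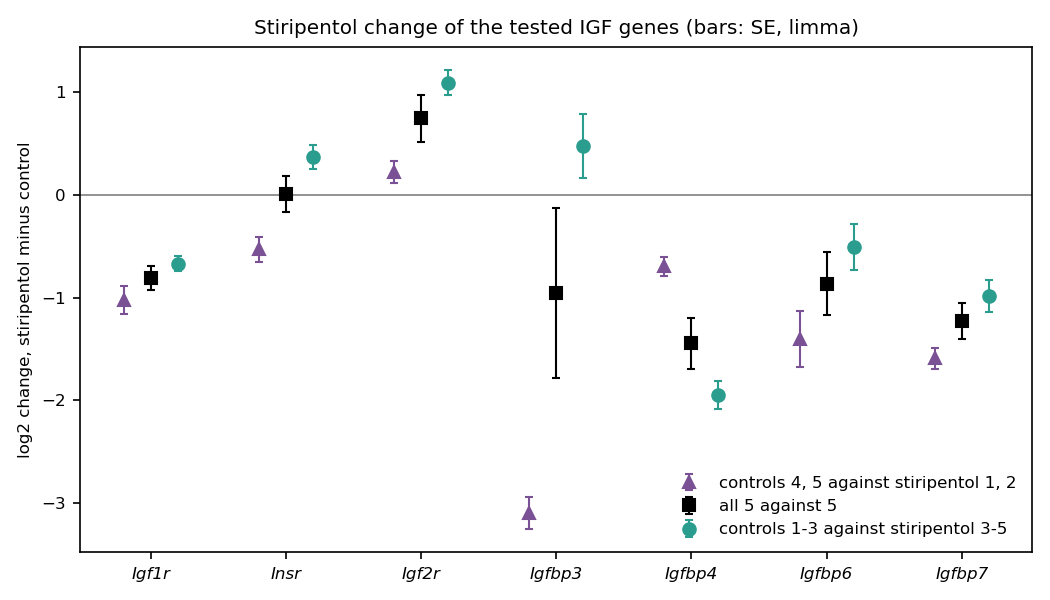
Log2 change (stiripentol minus control, vertical axis) of the 7 tested genes over all 5 against 5 libraries (squares), in the 2-library set (triangles) and in the 3-library set (circles). Bars are standard errors from limma. Igf1r, Igfbp4, Igfbp6 and Igfbp7 lie below 0 in both sets and Igf2r above 0, while Insr and Igfbp3 have opposite signs in the sets.

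Across the 7 tested genes, the change differed between the sets for 6, all but Igf1r, against a background of 63.3% of all tested genes. With quantile normalization this count was 4 (Igf2r, Insr, Igfbp3 and Igfbp4). In all 4 pairings of a control with a stiripentol cluster Igf1r, Igfbp4, Igfbp6 and Igfbp7 were lower and Igf2r was higher. Only Insr and Igfbp3 took different signs. The share of all tested genes that kept the same sign in all 4 pairings was not computed. Whether the members kept their sign more often than other genes was therefore not tested. The same 4 genes that were called also had no overlap between groups, and 14.3% of all tested genes lay wholly lower and 13% wholly higher in stiripentol libraries.

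Other genes of the pathway were counted over 6 lists of 55 genes, of which 52 had rows and 45 were tested. 13 were called lower, 2 higher and 30 not called, against the background of 14.1% lower and 13.6% higher over all tested genes, with a median log2 change of -0.39 beside -0.056 for all tested genes. The count of lower calls was 8 without control 1, 8 without control 3 and 6 without stiripentol 2. Over all tested genes 1208, 1276 and 1171 were then called lower, beside 1740 with all libraries. The lists were chosen with earlier results of these data known.

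Of the 17 adaptors and kinases 16 were tested, 6 were called lower and 1 higher (14.1% and 13.6% over all tested genes), with a median log2 change of -0.57. Irs1, an adaptor that binds the activated receptors, fell by 2.11 on the log2 scale (SE 0.28, adjusted p = 0.000732 by limma). Its levels were 5.46 to 5.71 log2 CPM in control and 2.45 to 4.01 in stiripentol libraries, with no overlap. Irs2, the related adaptor, fell by 1.28 (SE 0.35, adjusted p = 0.0209 by limma), from 7.40 to 8.04 log2 CPM in control to 5.15 to 7.02 in stiripentol libraries. So both adaptors fell, as did Igf1r. The log2 change was -2.80 for Irs1 and -2.15 for Irs2 in the 2-library set and -1.65 and -0.71 in the 3-library set, and these differed between the sets (adjusted p = 0.00124 and 0.000893 by limma). Pik3r2, a regulatory subunit of phosphoinositide 3-kinase, fell by 0.39 (adjusted p = 0.0182 by limma), with changes of -0.49 and -0.33 in the 2-library and 3-library sets. Akt2, a kinase of the Akt family, rose by 0.41 (SE 0.11, adjusted p = 0.0192 by limma), by 0.41 in each set.

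Of the 11 negative regulators, all tested, 1 was called lower and 1 higher, no more than the 14.1% and 13.6% over all tested genes, with a median of -0.34. The called genes are given as single values. Trib3, a pseudokinase that binds Akt, rose by 1.17 (SE 0.24, adjusted p = 0.00546 by limma), from 5.80 to 7.11 log2 CPM in control to 7.19 to 7.73 in stiripentol libraries. Its change was 1.48 in the 2-library set and 0.97 in the 3-library set. Phlpp2, a phosphatase of Akt, fell by 0.87 (SE 0.27, adjusted p = 0.0354 by limma). Phlpp2 changed by -1.54 in the 2-library set and -0.41 in the 3-library set, which differed (adjusted p = 0.000737 by limma). Of the 8 Akt substrates and FOXO factors, Foxo4 alone was called, with a fall of 0.70 (adjusted p = 0.0266 by limma), which is near the 14.1% over all tested genes, and the median was -0.046. Foxo4 changed by -1.34 in the 2-library set and -0.28 in the 3-library set, which differed (adjusted p = 5.43e-05 by limma).

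Of the 8 proteases and stanniocalcins, 6 were tested and 4 were called lower (14.1% over all tested genes), with a median of -1.86. Stc2, an inhibitor of PAPP-A, fell by 2.63 (SE 0.61, adjusted p = 0.0111 by limma). Its change was -2.97 in the 2-library set and -2.40 in the 3-library set, which differed (adjusted p = 0.0191 by limma). Htra3 and Adam12, proteases that cleave binding proteins, changed by -1.68 (adjusted p = 0.0164 by limma) and -2.04 (adjusted p = 0.0109 by limma). Htra3 changed by -3.21 in the 2-library set and -0.66 in the 3-library set, which differed (adjusted p = 7.75e-06 by limma). It lay at 3.42 to 4.07 log2 CPM in controls 1 to 3 and at 5.54 and 5.55 in controls 4 and 5. Adam12 changed by -1.80 in the 2-library set and -2.20 in the 3-library set. Prss23, a secreted serine protease, fell by 1.55 (adjusted p = 0.000557 by limma), with changes of -1.85 and -1.36 in the 2-library and 3-library sets. All 4 had no overlap between groups, so the falls covered an inhibitor of binding protein cleavage as well as proteases. Pappa itself, the protease of the Igfbp4 protein, was below the filter with at most 58 reads in a library.

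Of the 3 IGF2 mRNA binding proteins, Igf2bp3 was called lower (change of -2.56, SE 0.85, adjusted p = 0.0461 by limma), with 14.1% called lower over all tested genes. Its levels were 4.86, 4.81, 4.66, 1.60 and 1.64 log2 CPM in controls 1 to 5 and -0.36, -0.64, 1.85, 1.89 and 2.02 in stiripentol 1 to 5. Controls 4 and 5 thus lay below stiripentol 3 to 5, so the direction turned in that pairing, although the change was -2.12 in the 2-library set and -2.85 in the 3-library set. Of the 8 further ligands, receptors and binding proteins only Igf2 passed the filter and none was called. Igfbp1, which lies 3539 bases from Igfbp3, had at most 1 read in any library. Ins1, Ins2 and Insrr were not analysed here.

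**Figure D3:**
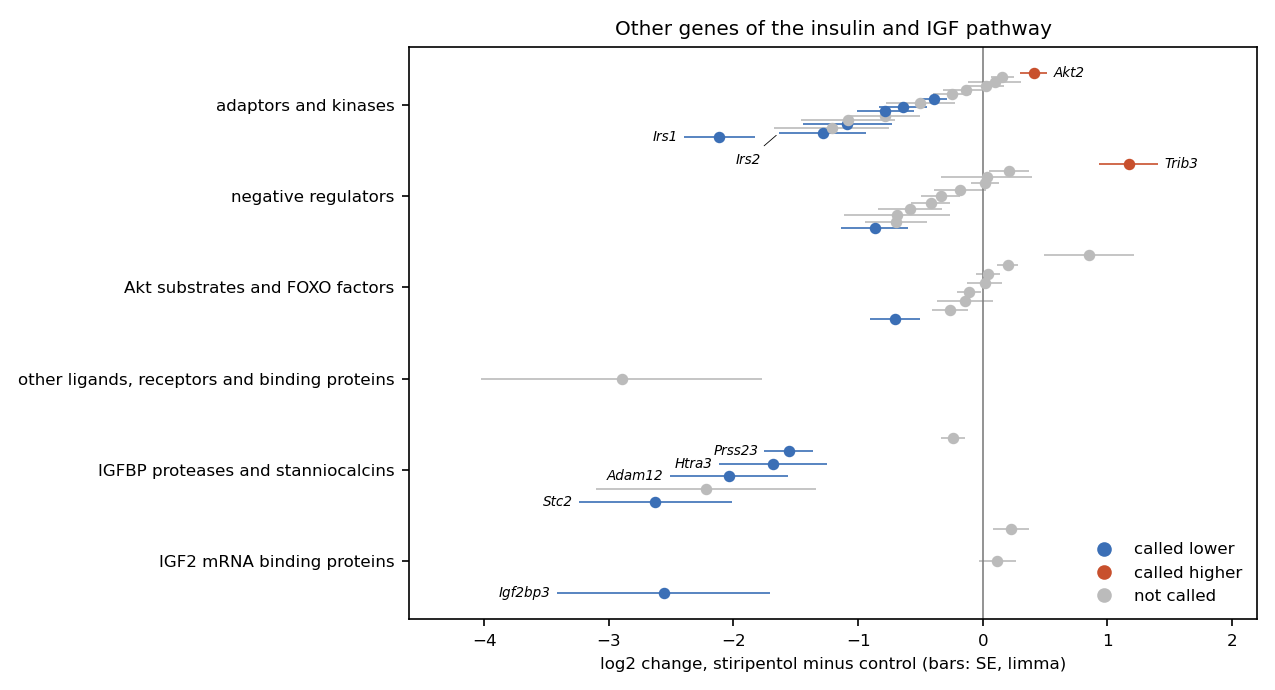
Log2 change (stiripentol minus control, horizontal axis, bars are standard errors from limma) of the 45 tested genes in 6 pathway lists, 1 point per gene. Blue points were called lower (13), red points higher (2) and grey points not called (30), with 6 lower points among the adaptors and kinases and 4 among the proteases and stanniocalcins.

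The genes whose levels ran most like those of the 3 lower members were sought over the 10 libraries by Pearson r. These values describe the clustered libraries and carry no p. Igfbp4 ran closest to Mme (0.994), a membrane peptidase, Rgl1 (0.990), an exchange factor of Ral, and Actn1 (0.986), an actin crosslinker. Igfbp7 ran closest to Myl6 (0.992), a myosin light chain, Msrb1 (0.992), a methionine sulfoxide reductase, and the keratin gene Krt7 (0.981). Igf1r ran closest to the kinase gene Nuak1 (0.986), the teneurin gene Tenm3 (0.983) and Arhgap24 (0.981), a GTPase activator. No gene was shared between the 3 lists.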

How the data were processed

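The deposited values are log2 CPM for every gene in 5 control and 5 stiripentol libraries, beside 10 columns of their own group means and comparisons, which were not used. The authors' methods name GENAVi for normalization, and the submitters' notes name mm10. The labels name a TruSeq total RNA kit and the methods a Lexogen QuantSeq 3′ kit. The aligner, annotation and counting strand are not given in the sources used here.

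Columns were matched to samples by title. A value of 0 reads was -4.82 in controls 1 to 3 and -4.74 in the other 7 libraries, so the prior differed slightly. Whole reads were recovered from 100% of the values (tolerance 0.05 read). Totals were 22375625 to 65299372 reads (median 63607057) in control and 55015760 to 60670901 reads (median 57977596) in stiripentol libraries, control 5 being the lowest. Depth limits counting error only.

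limma 3.58.1 in R 4.3.3 (lmFit, eBayes with trend, not robust) was run on the deposited log2 CPM of the 12306 genes with a mean above 0, with Benjamini-Hochberg adjustment over all of them and a threshold of 0.05. A group by set interaction was tested in the same way. Genes under the filter were compared by two-sided exact permutation tests over all arrangements of the libraries. Marker levels were summed on the linear scale. Alternatives left out each library, added a block or set term, took each set alone, and changed the scaling (quantile, TMM), the filter, the pseudocount (0.1 or 1 CPM) and the test (limma voom on the recovered reads). Statistics were tested on simulated data. The simulated libraries were independent and had no clusters, so this does not show how the p-values behave with the clusters seen here. Python 3.11.15, pandas 2.3.3 and scipy 1.17.1 were used elsewhere.

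The title numbers did not pair the libraries (mean correlation of deviations -0.152). The study's other numbering gave 0.0841 to 0.224 (mean 0.183), with 1 pair under 0.1, and was used as an alternative block. Positions are from GENCODE on GRCm38.p6 and promoters from RefSeq on the same build. The genes and lists were chosen with earlier results of these data known. Genes named were the 10 genes, up to 4 called genes of each pathway list by smallest adjusted p, and the 3 genes most like each of the 3 called genes with the largest changes. Pappa, Igfbp1, Igf2, Pappa2, the markers and the overlapping genes were named beyond this rule, with their values seen.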

Additional observations from a re-analysis of the deposited data

Results flagged for a closer look

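In groups of 5 libraries, single libraries stood far from the others in 3 of the 22 groups examined, where chance gives about 1 in 20 (1.1 of 22). Igf1 was at -4.21 log2 CPM in stiripentol 1, the 1 stiripentol library with a read of it. Igfbp5 was at -4.17 log2 CPM in stiripentol 5, again from 1 read. For both genes the other stiripentol libraries were tied at 0 reads. Any single read stands out from such a tie, so the chance rate does not hold there and the 2 counts are not comparable. Control 5 held 22375625 reads, the fewest of the controls.

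The change with stiripentol differed between the library sets for 6 genes by the limma interaction test. Given as the change in the 3-library set minus that in the 2-library set, the differences were 0.87 for Igf2r, 0.90 for Insr, 3.57 for Igfbp3, -1.25 for Igfbp4, 0.90 for Igfbp6 and 0.60 for Igfbp7. For Igfbp3 the gap lay between the stiripentol clusters (-3.79 for stiripentol 1 and 2 minus stiripentol 3 to 5), and for Igfbp4 and Igf2r mostly between the control clusters (-1.03 and 0.95 for controls 4 and 5 minus controls 1 to 3). What the sets are is not given in the sources used here, and as 63.3% of all tested genes passed this test, the difference is not particular to these genes.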

How the results depend on the processing

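Igf1r, Igfbp4 and Igfbp7 each kept their call in 22 of 23 alternatives that refit the genes. At an absolute log2 change of at least 1, 2 members were called lower, without Igf1r. The other exception was 1 mean per group and set, where limma called 0 genes at all (1116 at an unadjusted p under 0.05, 3 of the tested genes among them) and so 0 lower and 0 higher members and 0 pathway genes in either direction; fewer values enter that fit. Members called lower numbered 6 in the 2-library set alone, where 46.5% of all tested genes were called lower. Members called higher (Igf2r) numbered 0 to 1 when 1 library was left out and 0 with the replicate number as a block. They numbered 0 in the 2-library set and 2 in the 3-library set (with Insr), where 25.7% and 37.7% of all tested genes were called higher. They numbered 0 without the filter, where more genes share the adjustment, and 0 at an absolute log2 change of at least 1. Pathway genes called lower numbered 6 to 16 when 1 library was left out, 6 with the replicate block and 24 with a term for the set. They numbered 20 with the block in the study's other numbering, 27 and 23 in the 2-library and 3-library sets, and 8 at an absolute log2 change of at least 1. Lower calls over all 12306 tested genes moved too, from 1740 to 1062 with the replicate block, 3336 with the set term and 2199 with the other numbering. In the 2-library and 3-library sets 46.5% and 27% of all tested genes were called lower. Pathway genes called higher numbered 1 with the replicate block, 4 with the set term and 4 and 6 in the 2-library and 3-library sets. At an absolute log2 change of at least 1 they numbered 1. Higher calls over all tested genes were 1674 with all libraries, 1020 with the replicate block and 2908 with the set term. Their shares in the 2-library and 3-library sets were 25.7% and 37.7%. Libraries of the same title number share only that number, and the block ended the call of Igf2r (adjusted p = 0.0703). For Igf1 it raised the exact permutation p to 0.0625, the smallest that 5 pairs can give. No other member's call changed with it. Igf2r kept its call in 11 of 23 alternatives. Igfbp6 passed in 8 of 23 alternatives, among them TMM scaling and limma voom (adjusted p = 0.0441 and 0.0468, over a range of 0.000651 to 0.684). Signs turned for Insr (-0.093 to 0.11 when 1 library was left out, -0.53 in the 2-library set, -0.082 with 1 mean per group and set), Igfbp2 (-0.75 to 0.26 when 1 library was left out) and Igfbp3 (0.47 in the 3-library set), none of which was called over all libraries. Where no construction is named, the cause was not tested. Quantile normalization moved the median log2 change of all tested genes from -0.056 to 0.046 and kept every tested member's sign. Depth limits Igf1, Igfbp2 and Igfbp5, at no more than 83 reads in any library.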

Other observations

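Igf2, the other IGF ligand, was chosen here after its values were seen. It lay at 6.48 to 6.74 log2 CPM in controls 1 to 3, at 1.78 to 1.91 in controls 4 and 5 and at 0.25 to 2.84 in stiripentol libraries, a difference of -2.90 (SE 1.13) that missed the threshold (adjusted p = 0.0775 by limma). Pappa2, a protease of IGF binding proteins, was also chosen after its values were seen. Its levels were 5.27, 4.86, 6.73, 1.60 and 1.99 log2 CPM in controls 1 to 5 and 1.30 to 2.32 in stiripentol libraries. The difference was -2.22 (adjusted p = 0.0835 by limma), and controls 4 and 5 lay within the stiripentol range. Its change was -0.47 in the 2-library set and -3.39 in the 3-library set. For both genes the change differed between the library sets (adjusted p = 1.71e-06 and 0.00106 by limma). The spread of the controls in Igf2 and Igfbp2 ran in opposite directions, with Igf2 high in controls 1 to 3 and Igfbp2 high in controls 4 and 5.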
